A study of Mus musculus with 8 samples.

Results

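Genes of matrix breakdown and its control were followed across kidney cell types and days after injury, namely the matrix metalloproteinases *Mmp8*, *Mmp9*, *Mmp12*, *Mmp13*, *Mmp14* and *Mmp19*, the tissue inhibitors of metalloproteinases *Timp1*, *Timp2* and *Timp3*, and *Plau*, which encodes urokinase. They were taken by symbol from the deposited gene table, where all 10 were found among 57010 genes, and they were picked for their part in matrix turnover. Single-cell RNA sequencing was performed on kidney cells of male C57BL/6 mice after unilateral ischemia-reperfusion injury (IRI), a clamp on the vessels of the left kidney followed by its release. Mice received intraperitoneal vehicle (DMSO) or entospletinib, an inhibitor of spleen tyrosine kinase (SYK), before IRI and, in the groups kept longer, repeatedly afterwards. The 7 conditions were untouched kidneys (CTRL), vehicle at days 1, 7 and 14 after IRI (IRI_D1, IRI_D7, IRI_D14), and entospletinib at the same days (E_IRI_D1, E_IRI_D7, E_IRI_D14). Control mice had neither surgery nor, as far as the sources say, an injection, so IRI and vehicle cannot be told apart in a comparison with CTRL. The age of the mice was not given in the sources used here.

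Kidneys of 3 mice were pooled for each condition before sorting, so each condition was 1 pool and no test between single conditions was possible. Live cells were sorted on a flow cytometer, with a scatter gate that enriches leukocytes, so parenchymal cells were those that escaped the gate, and their share says nothing of the kidney as a whole. Of 120281 barcodes, 79389 passed the limits on cells and held 238942003 transcript counts, with 5806 to 20571 cells per condition and a median of 960 counts per cell in E_IRI_D14 against 2071.5 to 2930 in the other pools. A limit on ribosomal protein gene counts removed 12.1% to 29.0% of cells in the entospletinib pools and 4.23% to 8.53% in the vehicle and control pools. Called doublets made up 8.79% of the cells and were kept. Cells of all pools were spread over 8 sublibraries, the technical portions whose standard deviation (SD) is given as the error, and 13712 barcode combinations occurred in more than 1 of them. Levels are given as CPM, the counts of a gene per 1e+06 counts summed over a class in a pool. Intervals in brackets are 95% exact Poisson intervals, which cover counting error only, as does the limit that 3 counts set for a count of 0.

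Matrix metalloproteinases are zinc-dependent enzymes that cut collagens, elastin and other matrix proteins, and most are made as inactive precursors. TIMP proteins bind the active enzymes and block them, and urokinase turns plasminogen into plasmin, which cuts fibrin and can activate metalloproteinase precursors. In the injured kidney, leukocytes and resident cells both supply these proteins, and their balance is one of the features studied in scarring.

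*Mmp8*, *Mmp12* and *Mmp13* lie in the same stretch of metalloproteinase genes on chromosome 9 of the mm10 build, all on the plus strand. *Mmp13* (collagenase 3, ENSMUSG00000050578) is at chr9:7272514-7283331, *Mmp12* (macrophage elastase, ENSMUSG00000049723) at chr9:7344381-7369499 and *Mmp8* (neutrophil collagenase, ENSMUSG00000005800) at chr9:7558456-7568485. Counts in cells that passed came to 9347, 26260 and 4641 for these genes, whereas their neighbours in the stretch were close to silent, with 55 counts for *Mmp3*, 46 for *Mmp27*, 42 for *Mmp7*, 41 for *Mmp10*, 34 for *Mmp20*, 7 for *Mmp1b* and 6 for *Mmp1a*. The other members are spread over the genome: *Mmp9* (gelatinase B, ENSMUSG00000017737) at chr2:164940780-164955850, *Mmp14* (membrane type 1 metalloproteinase, ENSMUSG00000000957) at chr14:54431612-54445364, *Mmp19* (ENSMUSG00000025355) at chr10:128790910-128800824, *Plau* (ENSMUSG00000021822) at chr14:20836660-20843385, *Timp1* (ENSMUSG00000001131) at chrX:20870166-20874735, *Timp3* (ENSMUSG00000020044) at chr10:86300372-86349506 and, on the minus strand, *Timp2* (ENSMUSG00000017466) at chr11:118301069-118355740. *Timp1* lies within *Syn1*, *Timp3* within *Syn3*, and *Mmp12* and *Mmp19* overlap other genes, all on the opposite strand. *Timp2* overlaps *Cep295nl* on the same strand, which counting by strand would not separate. Whether counting used the strand is not given in the sources used here.

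Promoters are shown for the neighbours *Mmp12* and *Mmp13*, since macrophage-like cells supplied most counts of both when all conditions were summed. RefSeq windows of the 250 bases before a transcription start (GRCm38.p6) were at hand for 7 of the 10 members, with 8 windows in all because *Mmp12* has 2 starts. They were searched for TGANTCA, the letters bound by AP-1 factors, which read the same on both strands. The letters were found in the *Mmp13* window, with their first base 35 bases before the start (position -35), and in the window of the second *Mmp12* start at position -44. They were absent from the first *Mmp12* window and from those of *Mmp8*, *Mmp14*, *Timp1*, *Timp2* and *Timp3*, and 6.75% of all 32851 windows in the table hold them. The 3 windows follow 5′ to 3′ on the plus strand, with the letters found in capitals.
Mmp13, chr9:7272264-7272513: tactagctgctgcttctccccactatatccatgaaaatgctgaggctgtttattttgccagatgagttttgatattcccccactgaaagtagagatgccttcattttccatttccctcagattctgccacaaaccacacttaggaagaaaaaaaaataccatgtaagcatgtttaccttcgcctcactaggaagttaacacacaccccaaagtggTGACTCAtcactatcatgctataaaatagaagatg
Mmp12, first start, chr9:7344147-7344396: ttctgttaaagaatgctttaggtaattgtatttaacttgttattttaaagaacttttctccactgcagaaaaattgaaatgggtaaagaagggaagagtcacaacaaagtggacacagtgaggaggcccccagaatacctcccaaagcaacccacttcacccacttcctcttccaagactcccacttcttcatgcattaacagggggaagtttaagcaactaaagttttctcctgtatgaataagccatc
Mmp12, second start, chr9:7347124-7347373: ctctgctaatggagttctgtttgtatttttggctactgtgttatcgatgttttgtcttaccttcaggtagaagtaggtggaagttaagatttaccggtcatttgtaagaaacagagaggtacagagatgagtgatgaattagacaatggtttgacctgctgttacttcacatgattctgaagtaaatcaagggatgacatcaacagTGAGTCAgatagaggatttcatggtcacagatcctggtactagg
A match is a description of the letters and not of a bound site, and the data do not show which *Mmp12* start was used.

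Each member had its own set of cell classes. Cells were clustered and each cluster was named from marker genes, which gave 21629 macrophage-like cells in 4 clusters, and the name carries "-like" because it rests on markers alone. The members were left out of the genes used for clustering. Even so, *Mmp9* was among the 10 leading genes of a neutrophil-like cluster, *Plau* and *Mmp12* of a macrophage-like cluster and *Mmp19* of the monocyte-like cluster. Levels by class are given as a description. Orders are given among named classes, and of the unnamed clusters, cluster 30 had *Mmp9* at 245 ± 24.4 CPM and *Mmp8* at 66.5 ± 29.3 CPM and cluster 27 had *Mmp13* at 183 ± 106 CPM.

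**Figure D1:**
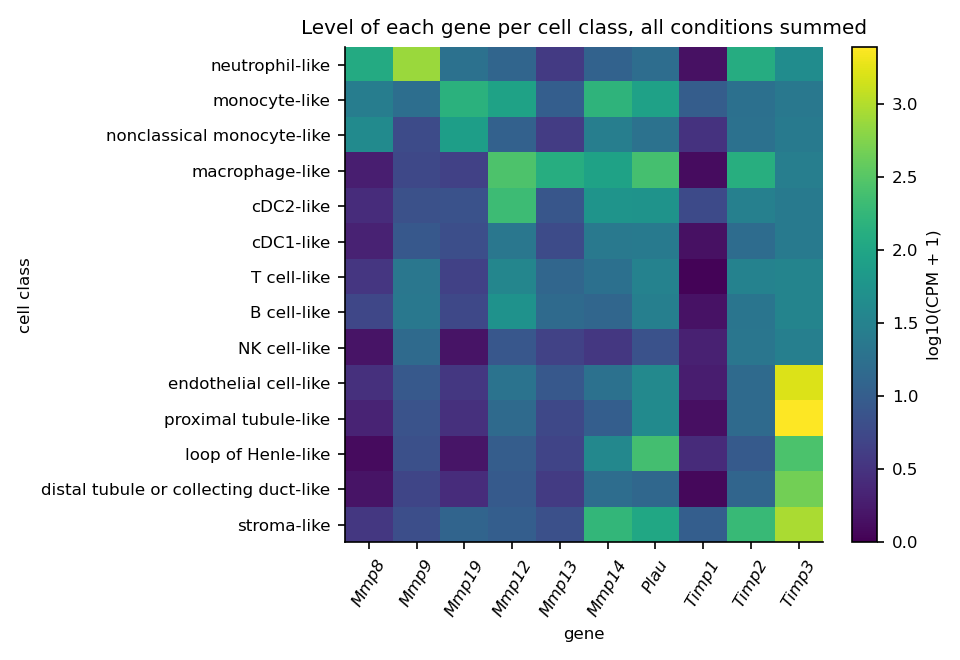
Level of each member (columns) in the larger named cell classes (rows), all conditions summed, with color for log10(CPM + 1). *Mmp9* stands at 762 CPM in neutrophil-like cells and *Timp3* at 2451 CPM in proximal tubule-like cells.

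*Mmp9* was a neutrophil transcript, at 762 ± 38.6 CPM (SD, n = 8 sublibraries) over all conditions, and neutrophil-like cells held 86.2% of its counts. When each cell was thinned to 500 counts, *Mmp9* was seen in 28.7% of neutrophil-like cells. *Mmp8* was also highest in neutrophil-like cells at 117 ± 14.4 CPM, followed by nonclassical monocyte-like cells at 40.9 ± 7.08 CPM and monocyte-like cells at 26.6 CPM. Those classes held 52.9%, 27.1% and 10.5% of its counts.

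*Mmp12* and *Mmp13* were macrophage transcripts, at 277 ± 28.4 CPM and 128 ± 10.8 CPM in macrophage-like cells, which held 60.5% and 78.3% of their counts. Over all conditions *Mmp12* was nearly as high in type 2 conventional dendritic (cDC2)-like cells, at 208 ± 43 CPM, and in the unnamed cluster 10, at 228 CPM. The cDC2-like and cluster 10 levels did not differ beyond their spread. By pool, cDC2-like cells stood below macrophage-like cells in CTRL and at day 1 but above them at days 7 and 14. In IRI_D14 the cDC2-like cells held 1969 *Mmp12* counts against 1482 in macrophage-like cells. Cluster 10 held 2328 cells and was led by genes such as *Fosb*, *Cd83*, *Egr2* and *Cd40*. Its macrophage markers were *C1qa* and *C1qb* only, too few for a name, so macrophage-like values leave it out, and 1570 of its cells came from IRI_D14 against 170 from E_IRI_D14. At day 14 it had, vehicle first, *Mmp12* at 211 and 419 CPM, *Mmp13* at 49.4 and 109.8 CPM, *Mmp14* at 114 and 134 CPM and *Plau* at 214 and 167 CPM. Removing called doublets took *Mmp12* in T cell-like cells from 35.0 to 6.73 CPM and in B cell-like cells from 52.3 to 7.74 CPM.

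*Mmp14*, which sits in the cell membrane and activates the precursor of gelatinase A, was spread over several classes. It stood at 173 ± 48.6 CPM in stroma-like cells, 159.9 ± 6.25 CPM in monocyte-like cells and 89.7 ± 5.37 CPM in macrophage-like cells, and stroma-like and monocyte-like cells did not differ beyond their spread, though the stroma-like class was mixed, as shown further on. Most monocyte-like cells came from day 1, and within those pools monocyte-like and macrophage-like cells were close, at 167 and 148 CPM in IRI_D1 and 237 and 252 CPM in E_IRI_D1. *Mmp19* was highest in monocyte-like cells at 147 ± 23 CPM and the cluster named nonclassical monocyte-like at 78.7 ± 9.62 CPM, against 3.58 ± 1.48 CPM in macrophage-like cells. The first pair held 42.6% and 38.2% of its counts. That cluster had 4 markers of nonclassical monocytes and 4 of monocytes, a tie. At the finer Leiden resolution of 2, 5848 of its 8105 cells fell in monocyte-like clusters, with *Mmp19* at 104 CPM, and 2224 in a nonclassical monocyte-like one, with 5.53 CPM, and monocyte-like cells then held 79.4% of the counts. Over all conditions *Plau* was highest in macrophage-like cells at 243 ± 17.9 CPM and loop of Henle-like cells at 236 ± 31.7 CPM, which did not differ beyond their spread. The order turned between pools. In CTRL loop of Henle-like cells were higher, with 209 of 688808 counts against 1843 of 12136309. In IRI_D1 macrophage-like cells were higher, with 5071 of 7985211 counts against 155 of 613984. Macrophage-like cells held 59.5% of all *Plau* counts and loop of Henle-like cells 3.75%.

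The inhibitors divided along other lines. *Timp3*, which is held in the matrix, marked parenchymal cells, with 2451 ± 205 CPM in proximal tubule-like, 1643 ± 57.2 CPM in endothelial cell-like and 904 ± 241 CPM in stroma-like cells against 27 ± 3.69 CPM in macrophage-like cells. *Timp2*, which both blocks metalloproteinases and helps *Mmp14* protein to activate gelatinase A, stood at 190.3 ± 30.9 CPM in stroma-like, 134 ± 9.08 CPM in macrophage-like and 125 ± 4.33 CPM in neutrophil-like cells. *Timp1*, an inhibitor induced by inflammation in many tissues, was barely seen in this preparation, with 441 counts in all and a highest level of 9.4 CPM in stroma-like cells and 9.07 CPM in monocyte-like cells.

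Injury moved the macrophage members in opposite directions relative to CTRL. In macrophage-like cells *Mmp14* and *Plau* were higher at day 1, *Mmp12* and *Mmp13* were lower at days 7 and 14, and *Timp2* stayed close to its control level. Ratios are given on the log2 scale relative to the median gene, with the SD over 8 sublibraries, for genes with at least 20 counts over both pools and a mean of at least 10 CPM, and a ratio past 1 in size is counted as past the fold. All 3 comparisons share the CTRL pool.

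*Mmp12* in macrophage-like cells was 395 ± 68 CPM in CTRL. It was 723 ± 112 CPM in IRI_D1, 117 ± 60.6 CPM in IRI_D7 and 96.2 ± 12.4 CPM in IRI_D14. The entospletinib pools of days 1, 7 and 14 had 248 ± 46.4, 211 ± 62.3 and 101.5 ± 24.8 CPM. Over the whole class the vehicle pool at day 1 was the highest of the 7, and at day 14 both pools were well under CTRL. Vehicle over CTRL at these days was 0.67 ± 0.27, -1.53 ± 1.00 and -2.01 ± 0.24, each in 1 direction in 8 of 8 sublibraries. The day 1 value did not hold within the 4 clusters of the class, where *Mmp12* went from CTRL to IRI_D1 from 870 to 773 CPM (cluster 6), 363 to 236 CPM (cluster 0), 335 to 356 CPM (cluster 4) and 188 to 11.5 CPM (cluster 11). Cluster 0 held 2338 of 3862 macrophage-like cells in CTRL and cluster 6 held 1711 of 1976 in IRI_D1. The day 7 and day 14 values were below CTRL in all 4 clusters.

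*Mmp13* in the same cells was 235 ± 10.4 CPM in CTRL. In the vehicle pools it went from 195.5 ± 53.2 CPM at day 1 to 61.7 ± 17.5 CPM at day 7 and 32.4 ± 10.8 CPM at day 14. In the entospletinib pools it was 89.7 ± 24.9, 171 ± 51.6 and 102.5 ± 20.8 CPM at those days. The order of the treatments was therefore opposite at day 1 and at the later days. Vehicle over CTRL was -0.47 ± 0.39, -1.70 ± 0.38 and -2.84 ± 0.44, the last being the lowest value of any member in this class.

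*Mmp14* went the other way. It was 21.9 ± 4.61 CPM in CTRL macrophage-like cells, then 148 ± 16.4, 47.2 ± 9.76 and 97.6 ± 10.7 CPM in vehicle pools at days 1, 7 and 14. The entospletinib pools had 252 ± 32.0, 46.7 ± 9.79 and 59.5 ± 14.7 CPM. Every injured pool was above CTRL, and vehicle over CTRL was 2.55 ± 0.36, 1.34 ± 0.39 and 2.17 ± 0.35, higher in 8 of 8 sublibraries at each day.

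*Plau* was 152 ± 28.3 CPM in CTRL. Vehicle pools had 635 ± 77.1 CPM at day 1, 162 ± 43.4 CPM at day 7 and 158 ± 17.5 CPM at day 14, against 361 ± 60.8, 201 ± 39.3 and 86.1 ± 15.1 CPM with entospletinib. Both day 1 pools stood above all others over the whole class. Vehicle over CTRL was 1.86 ± 0.31 at day 1, and 0.33 ± 0.33 and 0.08 ± 0.30 afterwards, which is within the spread of the sublibraries. Within clusters the day 1 rise was smaller than over the class, from 131 to 189.6 CPM in cluster 0, 149 to 224 CPM in cluster 4, 74.9 to 138 CPM in cluster 11 and 369 to 680 CPM in cluster 6. Within cluster 6, E_IRI_D1 at 424 CPM was not above IRI_D7 at 464 CPM or IRI_D14 at 423 CPM.

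**Figure D2:**
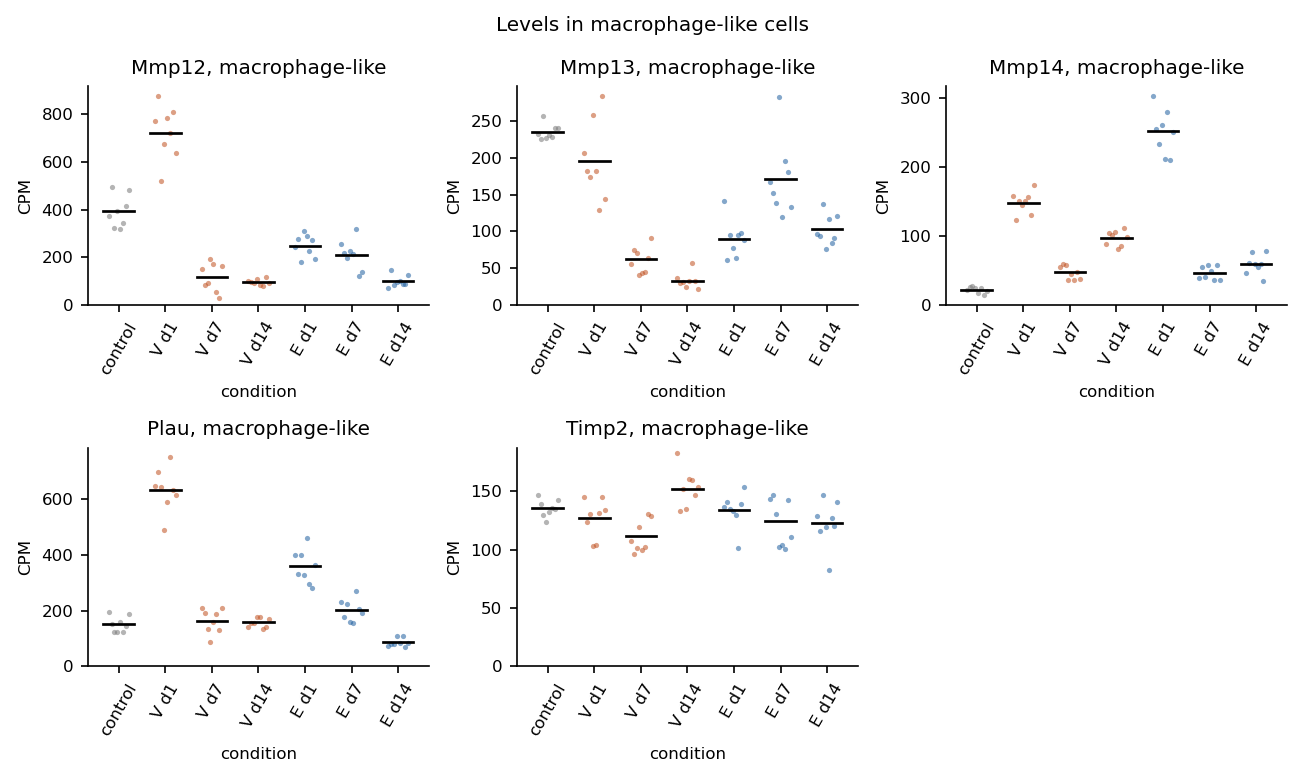
CPM of *Mmp12*, *Mmp13*, *Mmp14*, *Plau* and *Timp2* in macrophage-like cells of the 7 pools (V vehicle, E entospletinib, d day), each on its own axis, with points for the 8 sublibraries and a line for the pool. *Mmp13* with entospletinib lies below vehicle at day 1 (89.7 against 195.5 CPM) and above it at day 14 (102.5 against 32.4 CPM).

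*Timp2* ranged only from 112 CPM in IRI_D7 to 152 CPM in IRI_D14, with 136 ± 7.33 CPM in CTRL, and its ratios of vehicle over CTRL were -0.29 ± 0.15, -0.05 ± 0.19 and 0.19 ± 0.12. The count ratio of *Mmp14* to *Timp2*, read only for its change between pools since the genes differ in length, was 0.161 in CTRL, 1.16, 0.424 and 0.640 in vehicle pools at days 1, 7 and 14, and 1.87, 0.375 and 0.482 with entospletinib. It was lowest in CTRL and highest at day 1 in both treatments.

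Of the 10 members, 6 passed the limit on low values in macrophage-like cells in each comparison, namely *Mmp12*, *Mmp13*, *Mmp14*, *Plau*, *Timp2* and *Timp3*. In vehicle over CTRL at day 1, 2 of the 6 were past the fold and both were higher (*Mmp14* and *Plau*), where 14.2% of 8140 genes were past it. At day 7, *Mmp14* was higher and *Mmp12* and *Mmp13* were lower, where 2.98% of 7706 genes were past it, and at day 14 the same 3 genes were, against 3.58% of 7916. Medians over the 6 members were 0.19, -0.40 and -0.38 with all genes at 0.

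Other matrix genes, from lists chosen with earlier results known, moved with injury too. At day 1, 4 of 6 measured genes for cathepsins and collagen uptake were higher in vehicle than CTRL (*Ctsb*, *Ctsd*, *Ctsl* and *Lrp1*, lysosomal proteases and an uptake receptor), where 14.2% of all genes were past the fold. In the plasminogen system, *Plaur*, the urokinase receptor, was higher and *Plgrkt*, a plasminogen receptor, was lower. Among ADAM and ADAMTS proteases, *Adam8* and *Adam10* were higher and *Adam19* lower, of 6, and among matrix proteins *Fn1* (fibronectin) and *Spp1* (osteopontin) were higher, of 4. *Fn1* went from 7.00 CPM in CTRL to 47.6, 70.3 and 124 CPM in vehicle pools. Of the same 4 genes, *Col4a1* and *Col4a2* were past the fold downward at day 7 and *Col4a2* at day 14, where 2.98% and 3.58% of all genes were past it. None of the 16 further metalloproteinase and *Timp4* list genes passed the limit on low values in this class.

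Entospletinib was next compared with vehicle at the same day. In macrophage-like cells at day 1 *Mmp12* and *Mmp13* were lower with entospletinib and *Mmp14* was higher, and at day 14 *Mmp13* was higher and *Mmp14* and *Plau* were lower. The *Mmp12* ratio at day 1 was -1.46 ± 0.19, that is 2.76-fold lower, in 8 of 8 sublibraries. *Mmp12* was not separated from vehicle at day 7 (0.55 ± 0.95, 6 of 8 sublibraries) or day 14 (-0.02 ± 0.40, 4 of 8). *Mmp13* had ratios of -1.04 ± 0.52, 1.17 ± 0.69 and 1.56 ± 0.56 in order of days, with 8 of 8 sublibraries on 1 side at each day. *Mmp14* was 0.85 ± 0.20 at day 1 and -0.81 ± 0.43 at day 14, again in 8 of 8, with -0.31 ± 0.39 between them.

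*Plau* was lower with entospletinib by -0.74 ± 0.33 at day 1 and -0.97 ± 0.26 at day 14, in 8 of 8 sublibraries each time, and 0.01 ± 0.41 at day 7. *Timp2* was 0.16 ± 0.25, -0.14 ± 0.30 and -0.40 ± 0.29, and *Timp3* was 0.37 ± 0.47, 0.20 ± 0.41 and 0.77 ± 0.60. The urokinase and the elastase thus shared a direction at day 1, and the inhibitors stayed within the fold at all days.

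Past the fold with entospletinib were 2 of 6 members at day 1, *Mmp12* and *Mmp13*, both lower, where 0.634% of 8196 genes were past it. Only *Mmp13* was at day 7, where 1.02% of 7810 genes were, and at day 14, where 2.02% of 8100 were, higher both times. The call for *Mmp13* at day 1 is close to the threshold, and it was -0.92 with doublets removed, -0.89 with cells thinned to 500 counts, -0.69 in cells gated one by one on markers and -0.99, -0.95 and -0.96 without sublibrary 2, 4 or 7. At day 7 it was 0.96 without sublibrary 4, and *Plau* at day 14 passed the fold at -1.03 in gated cells and -1.05 without sublibrary 6.

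**Figure D3:**
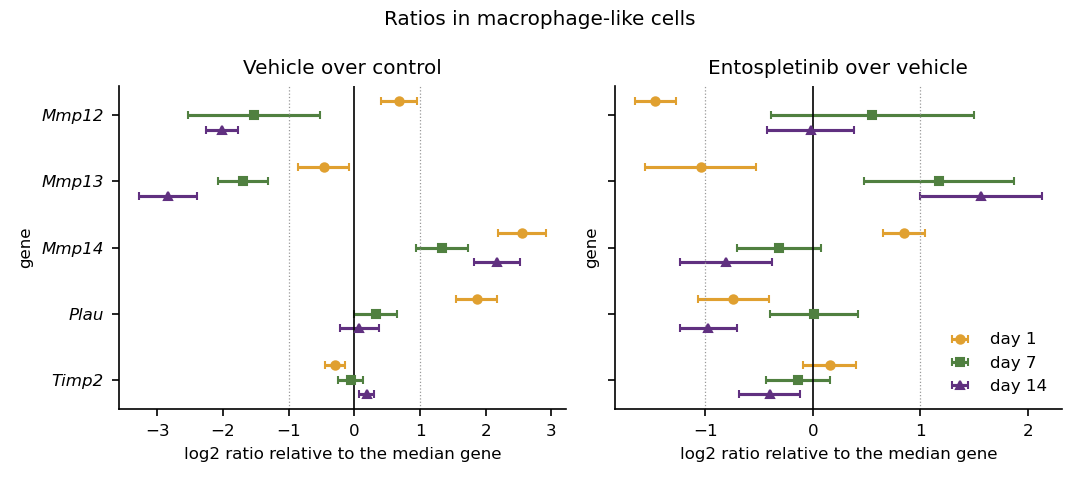
Log2 ratios relative to the median gene in macrophage-like cells, vehicle over control and entospletinib over vehicle at each day, for 5 members, with SD bars over 8 sublibraries and dotted lines at 1 and -1. The *Mmp13* ratio of entospletinib over vehicle goes from -1.04 at day 1 to 1.56 at day 14.

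The macrophage-like class itself changed in makeup, so day 1 values in particular were checked in each of its 4 clusters. Cluster 6, led by *Plau* and *Mmp12* among others, held 1711 of 1976 macrophage-like cells in IRI_D1 and 1451 of 2292 in E_IRI_D1, whereas cluster 0 was the main one in CTRL, IRI_D7, IRI_D14 and E_IRI_D7 and cluster 4 in E_IRI_D14 (2423 of 3885). Within cluster 6 at day 1, *Mmp12* was 773 CPM in the vehicle pool against 287 CPM with entospletinib, and within cluster 0 it was 236 and 166 CPM. It was 356 and 151 CPM in cluster 4, and in cluster 11 it was 11.5 and 59.1 CPM, from 1 and 12 counts. *Mmp13* within cluster 0 was 97 and 88 CPM at day 1, 59 and 150 CPM at day 7, and 25 and 95 CPM at day 14, vehicle first. Its day 1 difference was seen within cluster 6 (208 against 99 CPM), was small within cluster 0, and had the other direction in clusters 4 (39.6 against 50.4 CPM) and 11 (22.9 against 49.2 CPM), which rest on 6 and 2 vehicle counts. The later *Mmp13* differences were seen within all 4 clusters, with 55 against 245 CPM and 72 against 145 CPM in cluster 6. *Mmp14* within cluster 6 was 151 and 266 CPM at day 1 and 118 and 68 CPM at day 14, and its directions at both days were the same in the other 3. *Plau* at day 1 was 680 and 424 CPM in cluster 6, but 189.6 and 197 CPM in cluster 0, 224 and 196 CPM in cluster 4 and 138 and 158 CPM in cluster 11, so a gap of the size seen over the class was found in cluster 6 alone. At day 14 *Plau* was lower with entospletinib in all 4 clusters, for instance 129 against 68.1 CPM in cluster 0.

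A few cells carried much of *Mmp12*. The highest 1% of macrophage-like cells held 20.9% of its counts in CTRL, 19.1%, 46.8% and 54.0% in vehicle pools at days 1, 7 and 14, and 28.6%, 29.8% and 49.6% with entospletinib, and 1 cell of IRI_D1 held 148 counts. In CTRL, 31.7% of macrophage-like cells had at least 1 *Mmp12* count, in IRI_D1 37.4% and in IRI_D14 7.16%. The lower *Mmp12* at the late days was therefore seen as fewer cells with any count, with the rest gathered in few cells. In cells thinned to 500 counts, *Mmp13* was seen more often beside *Mmp12* than without it in all 7 pools, for instance in 16.6% against 8.95% of cells in CTRL and 10.9% against 3.40% in E_IRI_D1.

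Heat shock genes moved with some of these values, and like *Mmp12* and *Plau* they were highest in IRI_D1. The summed level of 6 of them (*Hspa1a*, *Hspa1b*, *Dnajb1*, *Hsph1*, *Bag3* and *Hsp90aa1*, chosen after their values were seen) in macrophage-like cells was 1958 CPM in CTRL, 3197, 1407 and 1813 CPM in vehicle pools at days 1, 7 and 14, and 2308, 1845 and 1918 CPM with entospletinib. In macrophage-like cells with no count of these genes, *Mmp12* was 266 CPM in IRI_D1 and 148 CPM in E_IRI_D1, against 748 and 262 CPM in the cells with at least 1. *Mmp13* in the cells with none was 157 and 97.0 CPM at day 1, 36.4 and 101 CPM at day 7, and 22.3 and 84.0 CPM at day 14, vehicle first, so the directions for *Mmp13* were the same as in the whole class. *Plau* was higher in the cells with at least 1 heat shock count in every pool, for instance 184 against 40.0 CPM in CTRL, 659 against 201 CPM in IRI_D1 and 390.2 against 153 CPM in E_IRI_D1. This split also sorts cells by depth, since the cells with none were shallower in every pool. Their median was 2297 against 3918 counts per cell in IRI_D1 and 1524 against 2280.5 in E_IRI_D1. Only 165 cells had none in IRI_D1. At resolution 2, a macrophage-like cluster of 1790 cells had 6 heat shock genes and *Mmp13*, *Mmp12* and *Plau* among its 10 leading genes. The part of heat shock genes in the values of *Mmp12*, *Mmp13* and *Plau* was not tested. Depth and the share of cells removed for ribosomal protein gene counts also differed between treatments, and the *Mmp13* ratio at day 14 was 1.45 in cells thinned to 500 counts and 1.48 with no limit on ribosomal protein gene counts.

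Neutrophil-like cells carried *Mmp9* at a similar level in every vehicle pool. It was 788 ± 46.2 CPM in IRI_D1, 799.8 ± 77.7 CPM in IRI_D7 and 689 ± 92.2 CPM in IRI_D14, where 7786, 1707 and 1932 such cells were found. In CTRL it was 360.5 CPM [245 to 512] from 31 counts in 65 cells. With entospletinib it was 697 ± 83.3 CPM at day 1 in 2154 cells, 409 CPM [324 to 510] at day 7 from 79 counts in 117 cells, and 227 CPM [83.4 to 495] at day 14 from 6 counts in 42 cells. The day 1 levels lay close together, with a ratio of entospletinib over vehicle of -0.15 ± 0.14, and the later ratios of -1.02 ± 0.90 and -1.58 ± 0.63 rest on few cells.

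*Mmp8* in neutrophil-like cells was 127 ± 17.4 CPM in IRI_D1, 36.5 ± 9.92 CPM in IRI_D7 and 23.5 ± 3.71 CPM in IRI_D14. In E_IRI_D1 it was 216 ± 51.7 CPM, and the other entospletinib pools and CTRL held 1 to 9 counts each. It was highest at day 1 in both treatments, and entospletinib over vehicle was 0.79 ± 0.38 at that day, higher in 8 of 8 sublibraries. *Timp2* was also highest at day 1, with 140 ± 11.8 CPM in IRI_D1, 33.7 ± 10.8 CPM in IRI_D7, 49.4 ± 20.2 CPM in IRI_D14 and 197 ± 28.4 CPM in E_IRI_D1, and a day 1 ratio of 0.52 ± 0.30 in 8 of 8. The 2 clusters behind the class were not equally filled, as described next.

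Both neutrophil-like clusters shared *Mmp9* but not the other pair. The cluster led by *Retnlg* and *S100a8* had 185 CPM of *Mmp8*, 193 CPM of *Timp2* and 781 CPM of *Mmp9*. The cluster led by *Il1a* and *Csf1* had 37, 45 and 740 CPM of these genes. Median depth was low in both, at 1487 and 1208 counts per cell. The first of them held 4549 of 7786 neutrophil-like cells in IRI_D1 and 1735 of 2154 in E_IRI_D1, but 127 of 1707 in IRI_D7 and 235 of 1932 in IRI_D14. At day 1, *Mmp8* was 176 CPM with vehicle and 249 CPM with entospletinib within the first cluster and 47.9 and 46.7 CPM, the latter from 20 counts, within the second. *Timp2* was 196 and 222 CPM within the first and 48.7 and 65.4 CPM within the second. *Mmp8* in vehicle pools at days 7 and 14 was 99.7 and 96.4 CPM within the first, from 21 and 25 counts, and within the second it was 47.9, 30.6 and 12.6 CPM at days 1, 7 and 14. The share of each cluster thus moved with the values of the class, and its part in them was not tested.

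**Figure D4:**
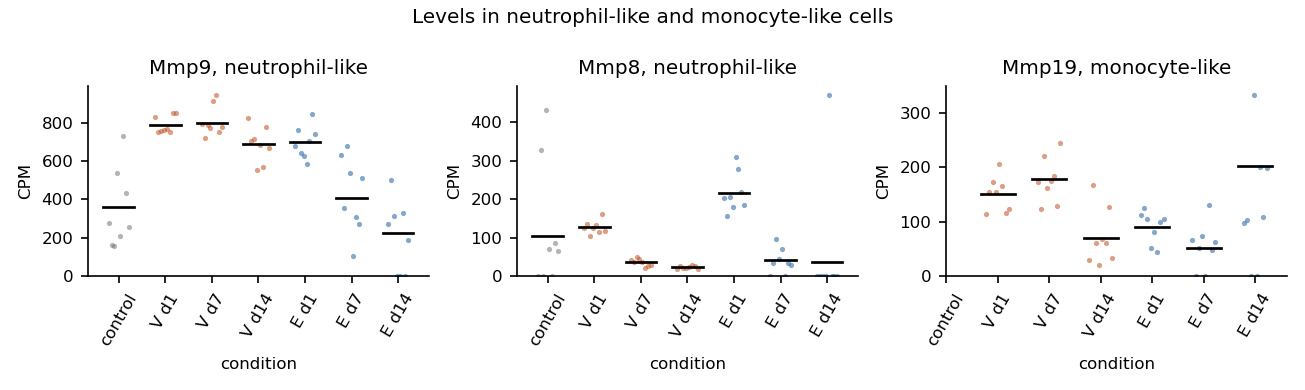
CPM of *Mmp9* and *Mmp8* in neutrophil-like cells and of *Mmp19* in monocyte-like cells by pool (V vehicle, E entospletinib, d day), with points for sublibraries and a line for the pool, control left out of the last for want of cells. *Mmp9* in vehicle pools stays between 689 and 799.8 CPM, and pools with few cells have wide spreads.

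*Mmp19* is a metalloproteinase of basement membrane substrates. Monocyte-like cells held the larger part of its counts in IRI_D7 (73.1%). At day 1 they held 1941 counts in IRI_D1 and 118 in E_IRI_D1, beside 2109 and 210 in the cluster named nonclassical monocyte-like, of which 2070 and 207 were in cells that were monocyte-like at resolution 2. In monocyte-like cells it was 150.3 ± 31.6 CPM in IRI_D1, 177.5 ± 41.3 CPM in IRI_D7 and 70.2 ± 50.7 CPM in IRI_D14, from 2429, 565 and 159 cells. With entospletinib it was 90.7 ± 29.3 CPM from 366 cells, 52.0 CPM [22.5 to 102] from 8 counts in 35 cells and 202 CPM [131 to 298] from 25 counts in 55 cells. The ratios were -0.57 ± 0.70, -2.15 ± 0.97 and 1.46 ± 1.42, and the last was -0.069 at resolution 2, where, in E_IRI_D14, 5 cells with 13 of the 25 counts left the class and 366 cells of the nonclassical monocyte-like cluster, with 7 counts, joined it. Only 6 such cells were found in CTRL, with no *Mmp19* count. The cluster named nonclassical monocyte-like had 109 ± 14.3 CPM in IRI_D1, 33.6 ± 8.37 CPM in E_IRI_D1 and 11.2 ± 10.3 CPM in CTRL, but its mixture differed by pool, with 3041 of 4174, 1354 of 2031 and 194 of 338 cells that were monocyte-like at resolution 2. *Mmp19* at day 1 was 139 CPM with vehicle and 49.8 CPM with entospletinib in those cells, and 8.40 and 1.44 CPM, from 38 and 3 counts, in the cells that were nonclassical monocyte-like at resolution 2.

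*Mmp14* in monocyte-like cells was 167 ± 9.63, 106 ± 29.2 and 165 ± 84.0 CPM in vehicle pools, and 237 ± 52.9 CPM in E_IRI_D1. The day 1 ratio was 0.66 ± 0.32 in 8 of 8 sublibraries, but it was -0.12 in cells gated one by one on markers. cDC2-like cells had *Mmp12* at 125 ± 78.9 CPM in CTRL, 43.8 ± 42.6, 263 ± 135 and 264 ± 72.4 CPM in vehicle pools, and 44.8 ± 25.6, 394 ± 126 and 235 ± 188 CPM with entospletinib. There *Mmp12* was low at day 1 and high later in both treatments. Macrophage-like cells supplied 83.1% of its counts in IRI_D1 and 25.1% in IRI_D14.

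The stroma-like class of 593 cells was mixed, since at resolution 2 only 197 of them fell in a stroma-like cluster and 395 in an unnamed one led by *Slc14a2*, *Sorcs3* and *Cdh6*. *Mmp14* was 406 CPM in the former and 58.4 CPM in the latter, so its level over the class in each pool depends on that mixture and is not compared between pools. *Timp3* in endothelial cell-like cells was 1700.4 ± 143 CPM in CTRL, 1488 ± 147, 1467 ± 314 and 960 ± 164 CPM in vehicle pools, and 1699.8 ± 167, 1968 ± 117 and 1429.5 ± 175 CPM with entospletinib. The vehicle pool at day 14 was the lowest and the entospletinib pool at day 7 the highest. Proximal tubule-like cells had 1951 to 3093 CPM, where E_IRI_D7 was again the highest but E_IRI_D1 was the lowest.

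Levels were also summed over all cells. *Mmp9* was 4.38 CPM in CTRL, 166, 112 and 40.1 CPM in vehicle pools at days 1, 7 and 14, and 81.7, 6.65 and 4.48 CPM with entospletinib. *Mmp19* was 1.42 CPM in CTRL, 64.8, 37.6 and 6.61 CPM in vehicle pools, and 16.7, 2.55 and 5.49 CPM with entospletinib. *Timp3* was 640.4 CPM in CTRL, 184, 123 and 94.4 CPM in vehicle pools, and 345, 598 and 373 CPM with entospletinib. Each vehicle pool was thus above its entospletinib pool for *Mmp9* and *Mmp19* and below it for *Timp3*. In such sums, fewer cells of a class and less RNA of a gene per cell cannot be told apart.

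Holding 1 of them fixed at a time separated them in arithmetic. For *Mmp9*, entospletinib over vehicle on the log2 scale gave -1.02, -4.07 and -3.16 at days 1, 7 and 14 before centring on the median gene. It was -0.81, -2.52 and -1.66 when only the share of counts in each class was changed, and -0.19, -1.08 and -1.78 when only the levels within classes were. *Mmp19* had totals of -1.96, -3.88 and -0.27, with -0.62, -2.30 and -0.34 from class makeup and -1.12, -1.85 and -0.001 from levels, so at day 1 the levels gave the larger part. *Timp3* had ratios of 0.91, 2.28 and 1.98, of which class makeup alone gave 0.90, 1.85 and 1.86. For *Mmp12* at day 1 the parts were opposed, with 0.80 from class makeup, -1.08 from levels and -0.54 together.

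**Figure D5:**
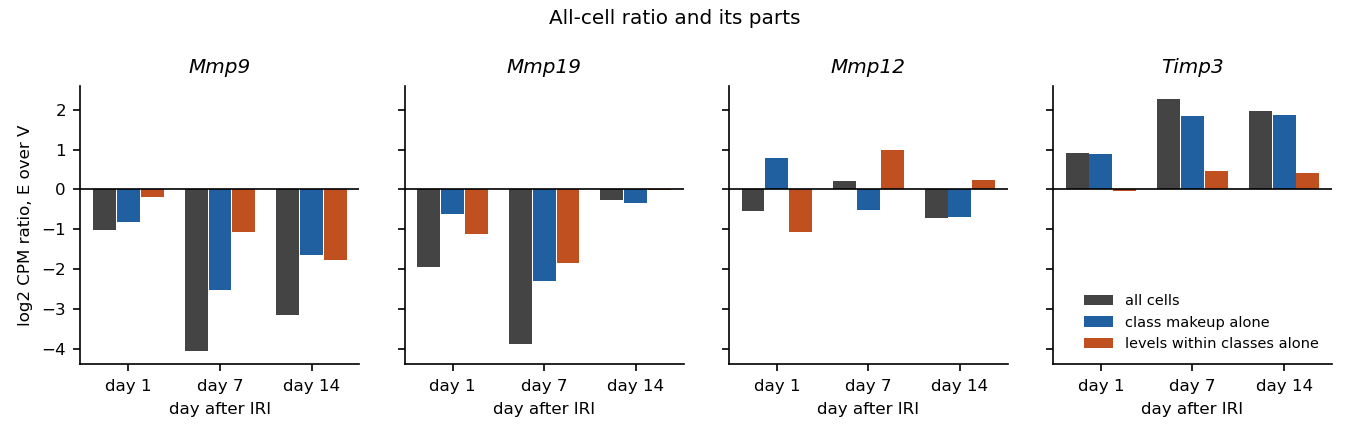
Bars of the log2 ratio of CPM over all cells, entospletinib (E) over vehicle (V), for *Mmp9*, *Mmp19*, *Mmp12* and *Timp3* at each day, beside the value with class makeup alone changed and with levels alone changed. For *Timp3* at day 7 the total of 2.28 stands beside 1.85 from class makeup.

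Over all cells 7 to 9 members passed the limit on low values. In vehicle over CTRL, 4 were past the fold upward and 2 downward at day 1, 3 and 2 at day 7, and 2 and 2 at day 14, where 23.7%, 16.2% and 14% of genes were past it. In entospletinib over vehicle, 0 were up and 2 down at day 1, 1 and 2 at day 7, and 1 and 3 at day 14, against 3.01%, 14.3% and 11.8% of genes. *Mmp9* was down and, at days 7 and 14, *Timp3* up, with relative ratios of 1.89 ± 0.28 and 1.83 ± 0.08 for the latter.

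Treatment was then tested over the 3 same-day pairs of pools by edgeR's quasi-likelihood test with day as a block and Benjamini-Hochberg adjustment over all genes. Over all cells, 3 of the 10 members passed, where 13.8% of 18306 genes did. *Timp3* was higher with entospletinib by 1.40 (SE 0.21, adjusted p = 0.0262), *Mmp9* was lower by -3.02 (SE 0.70, adjusted p = 0.0432) and *Mmp12* by -0.67 (SE 0.16, adjusted p = 0.0460), and the first 2 had their direction in 3 of 3 pairs. For *Mmp12* the plain log2 ratios of the pairs were -0.54, 0.22 and -0.71, so 2 of 3 pairs had the direction of the estimate before centring. *Mmp19* (-2.33, adjusted p = 0.0708), *Timp1* (-1.85, adjusted p = 0.0883), *Mmp8*, *Plau*, *Mmp13*, *Timp2* and *Mmp14* did not pass. Pools of different days stood in for replicates, so the spread includes how the effect changes with time. Without day 7 or day 14 the adjusted p was 0.153 or 0.183 for *Mmp9* and 0.134 or 0.123 for *Timp3*, and for *Mmp12* it was 0.0895, 0.134 and 0.183 without days 1, 7 and 14 in turn. With no day block none of the 3 passed (adjusted p of 0.377 for *Mmp9*, 0.0973 for *Timp3* and 0.196 for *Mmp12*). The *Mmp12* call was also lost with no limit on ribosomal protein gene counts (-0.68, adjusted p = 0.0608) and with library size alone (-0.35, adjusted p = 0.253), a scaling that moved the median gene from -0.04 to 0.28.

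Within macrophage-like cells none of the members passed by edgeR, where 0.946% of 13004 genes did, and *Mmp13* had 0.56 (adjusted p = 0.529), *Mmp12* -0.33 (0.656), *Mmp14* -0.06 (0.944), *Plau* -0.57 (0.120) and *Mmp19* -1.15 (0.0857). None passed in neutrophil-like cells, where 0.417% of 9356 genes did and *Mmp9* had -0.84 (adjusted p = 0.390). In monocyte-like cells no gene passed, 0% of 7806, with 322 at an unadjusted p under 0.05 and 0 by DESeq2.

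Among the wider lists, *Ctsd*, the lysosomal protease cathepsin D, was lower with entospletinib in macrophage-like cells at all 3 days. Its level was 43.8 CPM in CTRL, 201, 119 and 141 CPM in vehicle pools and 110.3, 76.1 and 71.5 CPM with entospletinib, so every injured pool was above CTRL and every entospletinib pool below its vehicle pool. The edgeR estimate was -0.94 (SE 0.11, adjusted p = 9.55e-04), and adjusted p was 1.45e-05, 0.0167 and 0.00376 without days 1, 7 and 14, but with no day block it did not pass (-0.92, adjusted p = 0.9999), nor did any gene in this class (358 at an unadjusted p under 0.05). *Fn1* (-1.01, adjusted p = 0.0314) and *Adam19* (0.57, adjusted p = 0.0356) passed as well, but neither did without day 14 (adjusted p = 0.163 and 0.168). Over all cells, 16 of 43 list genes tested passed, beside the 13.8% of all genes given above, among them *Plat* (1.54), *Adamts9* (1.33), *Col4a1* (1.09) and *Eln* (1.26) upward and *Plaur* (-1.12), *Lrp1* (-1.19), *Adam8* (-1.48) and *Fn1* (-2.35) downward. These calls do not hold without day 7, without day 14 or with no day block, where edgeR called no gene over all cells (3942, 3942 and 3796 at an unadjusted p under 0.05).

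Genes most like each member were found by Pearson's r of log2(CPM + 1) over 104 pools of a class and condition, among 13190 genes, as a description, since pools share conditions and sublibraries. For *Mmp9* they were *Acod1* (0.88), *Hdc* (0.88) and *Cxcr2* (0.86), and for *Mmp8* *Fbxl5* (0.85), *Clec4e* (0.83) and *Clec4d* (0.82). *Mmp12* was most like *Arhgap22* (0.77), *Hpgds* (0.77) and *Mrc1* (0.76), and *Mmp13* like ENSMUSG00000120703 (0.78), *Fat3* (0.73) and *C1qc* (0.73). *Mmp19* was most like *Thbs1* (0.79), *Ccl6* (0.76) and *Fn1* (0.76), and *Mmp14* like *Lrp12* (0.77), *Cttnbp2nl* (0.76) and *Anxa5* (0.74). *Timp3* was most like *Ghr* (0.94), *Nfib* (0.93) and *Sh3d19* (0.93), *Timp2* like *Zeb2* (0.63), *Eya4* (0.61) and *Itsn1* (0.61), *Plau* like *Myof* (0.68), *Snx24* (0.67) and *Zmynd15* (0.66), and *Timp1* like *Emp1* (0.53), *Lpp* (0.53) and *Mmp14* (0.51). *Mmp12* and *Mmp13* had r = 0.65 with each other and *Mmp8* and *Mmp19* r = 0.73.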

How the data were processed

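Counts of transcripts per gene and cell, whole numbers with no normalization, were deposited by the authors as 1 matrix for all conditions, made with the Parse pipeline (version 1.1) from Evercode libraries aligned to mm10. The annotation release is not given in the sources used here. The condition of each cell was read from the deposited cell table, and the 8 deposited samples each held cells of all conditions, so they served only as technical portions. Members and gene lists were chosen with earlier results of these data known. An item of the lists is not reported here.

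Cells with more than 300 genes, under 20000 counts, under 25% mitochondrial and under 1.5% ribosomal protein gene counts were kept, the limits stated in the study's methods. The ribosomal limit left 79389 of 90855 cells, and the study's own cell number lies closer to the count before this limit, so how that step was applied there was not recovered. They were clustered on 4000 genes, 40 principal components and 15 neighbours by the Leiden algorithm at resolution 1, where the study used scVI, giving 32 clusters. A cluster was named when at least 3 markers of a class were among its 100 leading genes, each in at least 10% of its cells. Counts were summed per pool and class, ratios were centred on the median gene, and treatment was tested by edgeR (4.0.16, R 4.3.3) over the 3 same-day pairs at an adjusted p of 0.05, with DESeq2 (1.42.0) as an alternative. An exact permutation of 3 pairs cannot go below p = 0.25 and was not run. Python 3.11.15, numpy 2.4.6, scipy 1.17.1, pandas 2.3.3, scanpy 1.11.5, leidenalg 0.10.2 and matplotlib 3.10.9 were used, and both the ratio and the edgeR steps were tested on simulated data.

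The genes named were all 10 members, list genes that passed edgeR or had 1 direction of at least 0.5 at all 3 days in macrophage-like cells with at least 50 counts, and the 3 genes most correlated with each member that had at least 200 counts, over pools of at least 100 cells and among genes with at least 500 counts. *Ctsl*, *Plgrkt*, *Adam10* and *Spp1* fall outside this rule and were named after their values were seen. Alternatives were no ribosomal limit, more than 500 genes per cell, doublets removed, cells gated one by one on markers, resolution 2, cells thinned to 500 counts, other filters and scalings, no day block, and leaving out each sublibrary or day.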

Additional observations from a re-analysis of the deposited data

Results flagged for a closer look

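*Mmp13* in macrophage-like cells had opposite ratios of entospletinib over vehicle at different days, -1.04 at day 1 against 1.17 at day 7 and 1.56 at day 14 on the log2 scale relative to the median gene, with all 8 sublibraries on 1 side at each day. *Mmp14* in the same cells was 0.85 at day 1 and -0.81 at day 14. Over all cells the *Mmp14* ratios were 0.63, -0.83 and -1.10 in order of days. With 1 pool at each day and treatment the differences between days were not tested, and the sublibraries are technical portions of the same pools. No member had a sublibrary that stood apart from the other 7 over all cells.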

How the results depend on the processing

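Of the counts and source shares, 280 alternative values stayed within 1.5 times the count or within the spread of the sublibraries, and 79 moved. Of the values of single members, 2904 kept their call or moved by less than the spread of the sublibraries, 156 moved further, 26 gained and 12 lost the test's threshold, and 6 past the fold changed sign. Genes past the fold in macrophage-like cells, entospletinib over vehicle at days 1, 7 and 14 and vehicle over control at days 1, 7 and 14, numbered 21, 23, 39, 439, 71 and 99 with limits of 50 counts and 50 CPM and 5218, 8004, 6173, 10431, 6101 and 9073 with no filter. They numbered 88, 268 and 493 with cells gated one by one and 266, 355 and 442 in thinned cells for days 1 and 7 of the first and day 7 of the second. Over all cells the numbers were 92, 440, 289, 892, 537 and 423, and 7066, 11873, 9415, 11953, 10872 and 12818 with no filter.

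Genes called by edgeR in macrophage-like cells numbered 241 with library size alone, 430 with no filter, 0 with no day block, 516 with gating and 39 to 388 without 1 day. In monocyte-like cells they were 4, 37, 1 with gating and 0 to 36. In neutrophil-like cells they were 21 by DESeq2, 0 with no day block, 60 with gating and 18 to 38. Over all cells they were 4576 with no filter, 0 with no day block, 1366 with no ribosomal limit and 0 to 3430.

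The leading source's share moved to 76.4% (*Mmp8*) in thinned cells. With doublets removed, gating and thinning, *Mmp9* had 93.9%, 92.3% and 94.1%. With doublets removed, gating, resolution 2 and thinning, *Mmp12* had 67.4%, 74.0%, 46.7% and 69.4%, *Mmp13* 84.7%, 87.7%, 54.0% and 83.2%, *Mmp14* 42.0%, 58.4%, 30.4% and 48.9%, and *Plau* 65.0%, 73.8%, 47.1% and 66.5%. *Mmp19* had 65.5% with gating, 79.4% at resolution 2 and 35.2% with thinning, *Timp1* 51.9% at resolution 2, *Timp2* 56.5%, 60.5% and 34.1% with doublets removed, gating and resolution 2, and *Timp3* 54.3% with gating. Resolution 2 left a macrophage cluster of 3774 cells unnamed.

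Values within the fold changed sign too, as for *Mmp14* at day 1 in monocyte-like cells (0.66 and, with gating, -0.12). The 6 past the fold were *Mmp8* in neutrophil-like cells, -0.26 (treatment, day 14, without sublibrary 5) and 0.49 (vehicle over control, day 7, gating), *Timp2* there, 0.13 and 0.37 (vehicle over control, days 7 and 14, gating), *Mmp19* in monocyte-like cells, -0.069 (treatment, day 14, resolution 2), and *Mmp14* there, 0.78 (treatment, day 14, gating). With no day block, adjusted p over all cells was 0.377 for *Mmp9*, 0.0973 for *Timp3* and 0.196 for *Mmp12*, and *Mmp12* had 0.253 with library size alone and 0.0608 (-0.68) with no ribosomal limit. Calls were also gained. In macrophage-like cells these were *Mmp13* (1.36), *Mmp14* (-0.58) and *Mmp9* (-1.68) without day 1, *Plau* (-0.87) without day 7, *Mmp9* (-1.79) and *Mmp19* (-2.23) with gating, *Mmp13* (0.70) with library size alone, and *Mmp13*, *Mmp19*, *Mmp9* and *Plau* with no filter. Over all cells they were *Timp1* (-2.06) and *Mmp8* (-1.22) by DESeq2, *Timp1* (-1.60) and *Mmp19* (-2.04) with library size alone, *Timp1* (-3.01), *Mmp8* (-1.69), *Mmp13* (0.82) and *Mmp14* (-1.02) without day 1, and *Timp1*, *Mmp8*, *Mmp14*, *Mmp19* and *Plau* with no filter. In monocyte-like cells they were *Mmp12* (1.101) and *Mmp19* (-1.05) without day 14. The cause of these shifts was not tested.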
